A study of Mus musculus with 8 samples.

Results

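Collagen chains are the protein subunits of the main structural fibres and sheets of skin. The chains described here are the protein-coding genes whose name has the form Col, a type number, the letter a and a chain number. Of 56748 genes in the count table, 44 met that rule, which uses names and no measured value. They comprised 11 fibrillar chains, 9 chains of basement membranes and the structures bound to them, 9 network-forming chains, 9 fibril-associated chains with interrupted triple helices (FACIT), 4 transmembrane chains and 2 others.

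Whole skin was taken at 35 weeks of age from male mice of the B6;129S4-Npytm2Rpa/J strain. Of the 8 mice, 3 carried the altered neuropeptide Y allele on both chromosomes (NPY tet/tet, here NPY-tet), and 5 were their wild-type siblings (NPY +/+, here WT). The labels record no treatment of either group. The body site of the skin, any transactivator for the tet allele and any doxycycline are not given in the sources used here. The series title links NPY overexpression to skin fibrosis, so the collagen genes bear on the question the study posed.

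A collagen molecule is a triple helix of chains that carry a repeated glycine. Fibrillar collagens are secreted as procollagens, trimmed and bundled into the fibres that give dermis its tensile strength. Basement membrane collagens form or anchor the sheet between epidermis and dermis and around vessels, fat and nerve. FACIT chains coat fibrils, and transmembrane chains sit in the cell surface.

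Each library came from 1 mouse, and library totals lay between 31370433 and 47495565 counts. Npy, the gene altered by the allele (chromosome 6, 49799690 to 49806487 in mm39), averaged 308 ± 11.6 CPM (counts scaled to a common library total) in NPY-tet skin and 0.237 ± 0.148 CPM in WT skin (SD, n = 3 and 5). Its log2 fold change was 10.37 (SE 0.28, adjusted p = 3.60e-09, edgeR's quasi-likelihood test with Benjamini-Hochberg adjustment), in the direction the labels give. Libraries fell into an rRNA-rich set, with over 1% of counts on ribosomal RNA genes, and an rRNA-poor set. NPY-tet replicate 1 (6.44%) was in the rRNA-rich set with WT replicates 1, 2, 3 and 5 (7.02 to 8.07%). NPY-tet replicates 2 and 3 (0.0388 and 0.0754%) were in the rRNA-poor set with WT replicate 4 (0.0641%). NPY-tet replicate 1 had the lowest collagen share of all libraries and NPY-tet replicate 3 the highest. Class medians are therefore also given without each of these mice, as are fold changes of many of the main chains. Both omissions were chosen from the collagen values themselves.

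Collagen chains took 0.452, 2.28 and 2.98% of all counts in NPY-tet replicates 1 to 3, against 2.14, 1.28, 1.196, 1.54 and 2.59% in WT replicates 1 to 5. The means were 1.90 ± 1.30% in NPY-tet skin and 1.75 ± 0.596% in WT skin (SD, n = 3 and 5). The lowest and the highest shares of all 8 libraries were both in NPY-tet mice. For NPY-tet replicate 1 the 95% Wilson interval was 0.450 to 0.454%, and such intervals cover counting error only. Types I and III made up 30.7, 79.2 and 81.2% of collagen counts in NPY-tet replicates 1 to 3, against 75.8, 67.8, 68.9, 66.3 and 82.5% in the WT libraries. In whole skin, fewer cells of a type and less RNA per cell cannot be told apart.

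**Figure D1:**
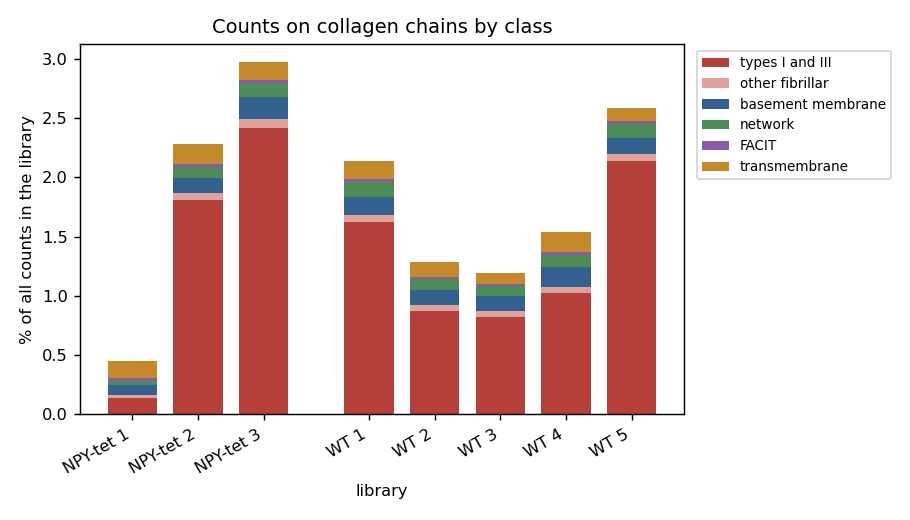
Collagen counts as a percent of all counts in each of 8 libraries, stacked by chain class, with NPY-tet mice left of WT mice. NPY-tet replicate 1 has the shortest bar, 0.452%, and NPY-tet replicate 3 the tallest, 2.98%.

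Levels per gene length are given as the deposited FPKM, which scale counts by gene length and library size. By the WT mean, 24 of the 44 chains reached 1 FPKM, 15 reached 10 FPKM and 4 reached 100 FPKM. Col1a1, the α1 chain of type I collagen, averaged 809 ± 725 FPKM in NPY-tet skin and 811 ± 394 FPKM in WT skin. Its partner Col1a2 averaged 399 ± 324 FPKM in NPY-tet skin and 380 ± 178 FPKM in WT skin, and Col3a1, the chain of type III collagen, 334 ± 264 and 340 ± 121 FPKM in the same order (SD, n = 3 and 5). The fourth level belonged to Col17a1, the hemidesmosome chain of basal keratinocytes, with 237 ± 10.3 FPKM in NPY-tet skin and 217 ± 38.4 FPKM in WT skin. The 3 dermal chains spread widely within each group, while Col17a1 did not. Col6a1, Col4a1 and Col4a2 followed, at 68.2 ± 35.0, 64.6 ± 28.2 and 49.3 ± 25.7 FPKM in NPY-tet skin and 94.3 ± 18.4, 78.1 ± 5.22 and 57.8 ± 5.54 FPKM in WT skin. In WT skin the ranges of mean ± SD of neighbours in this order overlapped from Col1a1 down to Col17a1 and between Col6a1 and Col4a1. They did not overlap between Col17a1 and Col6a1, or between Col4a1 and Col4a2.

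The sequence before the start of the gene is shown for chains picked by hand, not by the size of their change. Col1a1 had no RefSeq window. Some chains not shown fell further below the WT mean in NPY-tet replicate 1 than Col6a1 (2.97-fold), such as Col6a5 (9.24-fold) and Col5a3 (6.49-fold). For Col3a1, Col1a2 and Col6a1 NPY-tet replicate 1 was far below the other libraries, and for Col17a1 it was not. Each run is the 250 bases before the RefSeq start in GRCm38.p6, 5′ to 3′ on the gene's strand, and capitals mark CCAAT or TATAAA on either strand. The windows are chr1:45311288-45311537 (plus) for Col3a1, chr6:4505368-4505617 (plus) for Col1a2, chr10:76726045-76726294 (minus) for Col6a1 and chr19:47692043-47692292 (minus) for Col17a1.
Col3a1: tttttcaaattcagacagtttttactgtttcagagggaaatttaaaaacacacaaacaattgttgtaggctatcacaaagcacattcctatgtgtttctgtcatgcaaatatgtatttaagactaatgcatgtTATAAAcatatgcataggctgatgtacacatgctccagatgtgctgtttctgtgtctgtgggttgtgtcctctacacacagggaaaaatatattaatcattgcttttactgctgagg
Col1a2: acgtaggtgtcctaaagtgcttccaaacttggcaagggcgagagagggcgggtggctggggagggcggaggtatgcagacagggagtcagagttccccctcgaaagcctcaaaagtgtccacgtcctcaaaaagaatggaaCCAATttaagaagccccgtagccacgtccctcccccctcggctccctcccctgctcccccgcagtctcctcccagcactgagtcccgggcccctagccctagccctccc
Col6a1: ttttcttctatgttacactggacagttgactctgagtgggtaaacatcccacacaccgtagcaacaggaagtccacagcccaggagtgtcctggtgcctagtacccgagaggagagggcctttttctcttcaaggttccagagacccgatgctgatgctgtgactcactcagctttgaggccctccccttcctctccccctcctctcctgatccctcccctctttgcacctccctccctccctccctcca
Col17a1: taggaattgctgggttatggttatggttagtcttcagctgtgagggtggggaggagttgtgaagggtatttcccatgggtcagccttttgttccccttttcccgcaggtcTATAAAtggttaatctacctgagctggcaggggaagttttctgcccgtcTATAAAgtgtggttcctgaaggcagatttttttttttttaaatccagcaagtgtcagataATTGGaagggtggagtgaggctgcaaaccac
The Col3a1 window held TATAAA at position -117 from the start and the Col1a2 window held CCAAT at -109. The Col17a1 window held a pair of TATAAA, the nearer at -91, and CCAAT on the other strand at -31. The Col6a1 window held neither motif. RefSeq gave a window for 35 of the 44 chains. CCAAT was in 12 of the 35 (34.3%), against 33.8% of all 32526 windows of that length. TATAAA was in 5 (14.3%, against 12.3%), and GGGCGG, the GC box, in 21 (60.0%, against 33.0%). TGANTCA, the letters bound by AP-1 factors, was in 1 (2.86%, against 6.73%). Each chain gave 1 window, while the wider set held every distinct window and was not limited to 1 per gene. The shares being compared therefore differ in basis. Both strands were searched, and a match is a description of the letters only.

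No collagen chain passed the test between genotypes. Of the 44 chains, 38 had enough counts to be tested, and 0 of these reached an adjusted p of 0.05 in edgeR's quasi-likelihood test. Over all 18495 genes tested, 0.00541% did, which is Npy itself. By DESeq2 the count was also 0 chains, with 0.299% of genes called, and by limma-voom 0 chains, with 0.0162% called. At an unadjusted p under 0.05, 2 chains were higher in NPY-tet skin, with 2.43% of all genes higher at that level. In the lower direction 1 chain met that level, with 3.55% of all genes lower. Among the 38, 16 had a positive and 22 a negative log2 fold change, with a median of -0.02, against 9378 positive and 9117 negative and a median of 0.00 over all genes. A single chain, Col20a1, had no overlap between groups in the higher direction (1.81% of all genes) and 0 in the lower (1.98%).

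The 3 NPY-tet mice departed from the WT mean in different ways. In NPY-tet replicate 1, 14 of the 38 chains lay at least 2-fold below the WT mean, where 7.56% of all genes did, and 3 lay at least 2-fold above it, where 4.6% did. That library was below every WT library for 19 of 38 chains, where 23.7% of all genes were, and above every WT library for 3, where 22.9% were. In NPY-tet replicate 2, 2 chains lay at least 2-fold below the WT mean (4.21% of genes) and 2 at least 2-fold above (4.77%), with 9 below every WT library (20.0%) and 11 above every one (19.8%). In NPY-tet replicate 3, 2 lay at least 2-fold below (5.03%) and 0 above (1.9%), while 0 were below every WT library (10.7%) and 11 were above every WT library (10.6%). Without NPY-tet replicate 1 the chains had a median log2 fold change of 0.11, with 26 positive and 13 negative of 39 tested and 0 called (0.00526% of genes called, 3.3% at an unadjusted p under 0.05). Without NPY-tet replicate 3 the count was also 0 (0.0418% of genes called), but 10 chains were lower at an unadjusted p under 0.05, where 7.99% of all genes were. The median log2 fold change of the chains was then -0.17. Without 1 of the WT mice, 0 chains were called each time, and 0.00546, 0.00547, 0.00544, 0.00546 and 0.00549% of genes were, for WT replicates 1 to 5. Other settings also gave 0 chains, with 0.0647% of genes called without a filter on low counts and 0.00652% with a stricter one. The share of genes called was 0.0108% on either log2 FPKM scale and with a replicate block, and 0.0595% with the rRNA set as a covariate.

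**Figure D2:**
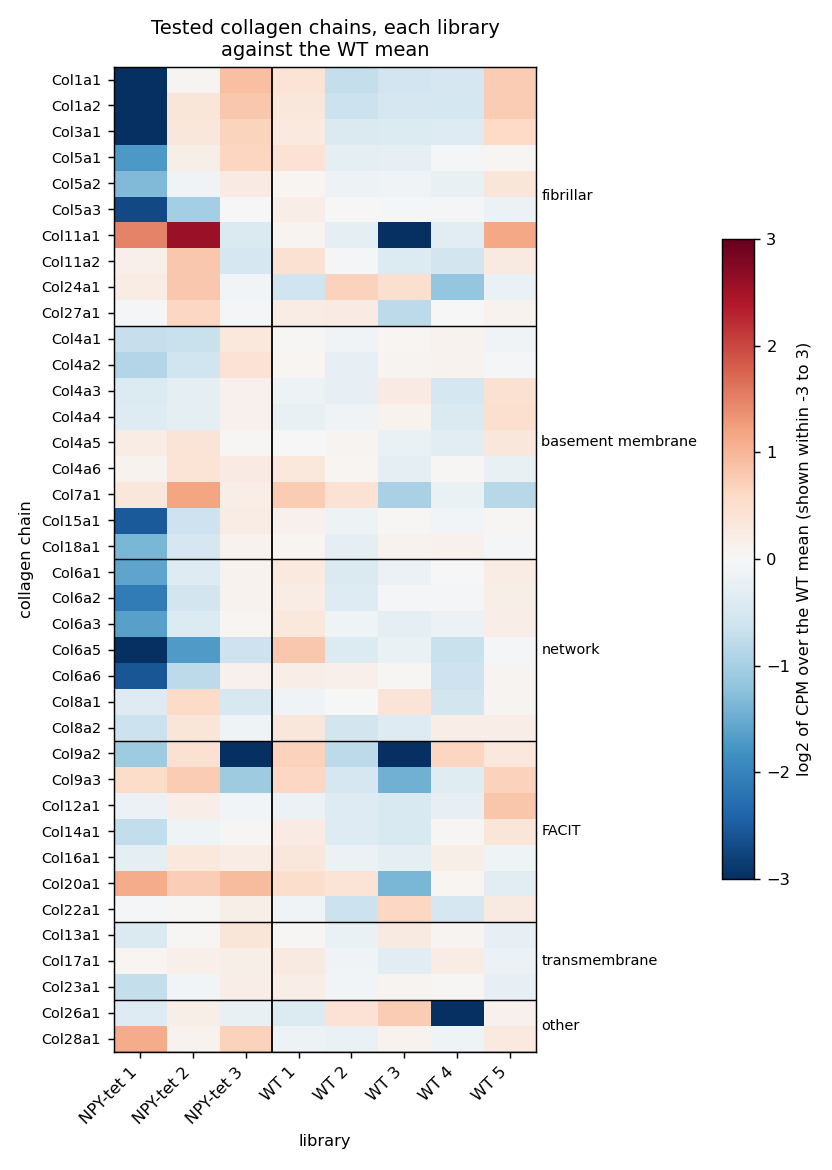
log2 of CPM over the WT mean for 38 tested chains in 8 libraries, NPY-tet columns left of WT columns, with values drawn within -3 to 3 and a library with 0 counts drawn at -3. The NPY-tet replicate 1 column is low for types I, III and VI and near the WT mean for Col17a1 and Col4a6.

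Among the fibrillar chains, 10 of 11 were tested, 6 with a positive and 4 with a negative log2 fold change (median 0.04). The median was 0.44 without NPY-tet replicate 1 and -0.46 without NPY-tet replicate 3. Col1a1 had 423, 5669.5 and 10021.9 CPM in NPY-tet replicates 1 to 3, against 7105.3, 3269.2, 3592.2, 3809.2 and 9145.7 CPM in WT replicates 1 to 5. Its lowest and highest values were both in NPY-tet mice, and the other NPY-tet mouse lay inside the WT range. The log2 fold change was -0.0034 (SE 0.82), with a 95% interval of -1.90 to 1.90, or 0.267- to 3.72-fold. Col1a2 had 508, 6105.3 and 8427.5 CPM in the NPY-tet libraries, against 6048.5, 3064.9, 3383.6, 3301.3 and 8118.4 CPM in the WT libraries (log2 fold change 0.07, SE 0.74). Col3a1, abundant in young and healing dermis, had 353, 4253.6 and 5339.9 CPM in the NPY-tet libraries, against 4145.1, 2502.1, 2527.5, 2577.4 and 5131.7 CPM in the WT libraries (log2 fold change -0.03, SE 0.70). For all 3 chains NPY-tet replicate 1 was the lowest of 8 libraries, 12.7-fold below the WT mean for Col1a1, 9.41-fold for Col1a2 and 9.56-fold for Col3a1. Without that library the log2 fold changes were 0.55 (SE 0.43) for Col1a1, 0.61 (SE 0.39) for Col1a2 and 0.51 (SE 0.33) for Col3a1, and none was called. They were -0.82, -0.53 and -0.55 without NPY-tet replicate 3. WT mice also spread, with a coefficient of variation of 48.5% for Col1a1, against a median of 19.1% over all genes.

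Type V chains, which join type I fibrils and limit their width, were again lowest in NPY-tet replicate 1. Col5a1 had 73.6, 274 and 378 CPM in NPY-tet replicates 1 to 3, against 326, 196, 205, 231 and 248 CPM in the WT libraries (log2 fold change 0.0053, SE 0.44). Col5a2 had 79.8, 186 and 236 CPM in the NPY-tet libraries, against 206, 178, 185, 169 and 255 CPM in the WT libraries (-0.25, SE 0.29). Col5a3 had 20.6, 66.3 and 133 CPM in the NPY-tet libraries, against 153, 134, 129, 131 and 119 CPM in the WT libraries (-0.86, SE 0.51). For Col5a3, NPY-tet replicates 1 and 2 lay below every WT library and replicate 3 lay within them. Without NPY-tet replicate 1 the log2 fold changes were 0.44 for Col5a1, 0.089 for Col5a2 and -0.41 for Col5a3. They were -0.46, -0.58 and -1.61 without NPY-tet replicate 3. Col11a1, a type XI chain best known from cartilage fibrils, was low, with 2.29, 4.91 and 0.606 CPM in the NPY-tet libraries, against 0.856, 0.658, 0.101, 0.640 and 1.81 CPM in the WT libraries. Its log2 fold change of 1.68 (SE 0.75) was the highest of all chains and was not called (adjusted p = 0.795, edgeR). Col11a2, Col24a1 and Col27a1 had log2 fold changes of 0.25, 0.36 and 0.21, each with an interval that held 0. Col2a1, the main cartilage chain, had at most 14 counts in any library and was not tested.

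**Figure D3:**
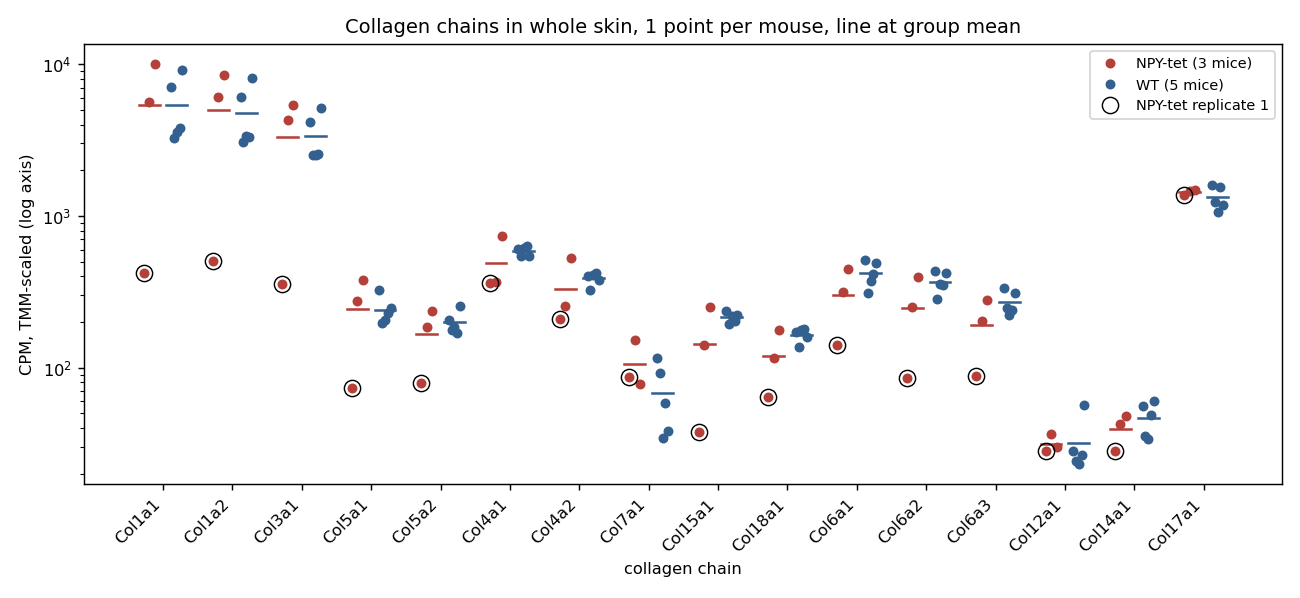
CPM on a log axis for 16 collagen chains, NPY-tet mice left of WT mice, 1 point per mouse, a line at each group's mean and a ring around NPY-tet replicate 1. The ringed point is lowest for Col1a1, Col1a2 and Col3a1 and lies among the others for Col17a1.

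Of the 9 basement membrane chains, all were tested, 3 with a positive and 6 with a negative log2 fold change (median -0.17). The median was -0.042 without NPY-tet replicate 1 and -0.34 without NPY-tet replicate 3. Col4a1 and Col4a2, the chains of the type IV sheet found in nearly all basement membranes, start head to head on opposite strands. In GRCm38.p6 their RefSeq starts overlap by 22 bases, shown in capitals within chr8:11312801-11312830 on the plus strand.
Col4a1 and Col4a2: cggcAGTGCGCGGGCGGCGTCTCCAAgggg
Col4a1 had 363, 368 and 733 CPM in NPY-tet replicates 1 to 3, against 607, 547, 617, 630 and 546 CPM in the WT libraries (log2 fold change -0.27, SE 0.23). Col4a2 had 210, 254 and 526 CPM in the NPY-tet libraries, against 405, 327, 410, 418 and 377 CPM in the WT libraries (-0.23, SE 0.26). For both genes NPY-tet replicates 1 and 2 lay below every WT library and replicate 3 above every one, so the groups overlapped. Without NPY-tet replicate 1 the log2 fold changes were -0.093 for Col4a1 and 0.016 for Col4a2. They were -0.69 and -0.74 without NPY-tet replicate 3. The WT libraries were close together, with a coefficient of variation of 6.76% for Col4a1. The other type IV chains, Col4a3 to Col4a6, are found in more restricted membranes. Col4a3 and Col4a4 had log2 fold changes of -0.17 and -0.15, and Col4a5 and Col4a6 of 0.22 and 0.26. Col4a6 had 23.2, 29.1 and 25.6 CPM in the NPY-tet libraries, against 27.0, 22.7, 18.1, 22.1 and 18.7 CPM in the WT libraries.

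Col7a1, the chain of the anchoring fibrils under the epidermis, had 86.3, 153 and 77.6 CPM in NPY-tet replicates 1 to 3, against 115, 92.0, 34.2, 58.6 and 38.3 CPM in the WT libraries. The groups overlapped, and its log2 fold change was 0.64 (SE 0.45). Col15a1 and Col18a1 carry heparan or chondroitin sulfate chains and lie at the outer face of basement membranes. Col15a1 had 37.8, 141 and 250 CPM in the NPY-tet libraries, against 237, 195, 221, 204 and 222 CPM in the WT libraries (-0.59, SE 0.49). Col18a1, the source of endostatin, had 64.3, 116 and 177 CPM in the NPY-tet libraries, against 173, 137, 177, 180 and 159 CPM in the WT libraries (-0.47, SE 0.26). For both, NPY-tet replicate 1 was lowest and replicate 2 next lowest of the 8 libraries. Without NPY-tet replicate 1 their log2 fold changes were -0.14 and -0.17. They were -1.27 and -0.86 without NPY-tet replicate 3.

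All 7 tested network-forming chains of 9 had a negative log2 fold change (median -0.51), and 0 were called. Without NPY-tet replicate 1, Col8a1 and Col8a2 were positive (0.15 and 0.13), the 5 tested type VI chains stayed negative, and the median was -0.16. Without NPY-tet replicate 3 the median was -0.89. In the rRNA-poor set the median was -0.074, with Col8a1 at 0.66. Type VI collagen forms beaded filaments around cells and fibrils. Col6a1 had 140, 317 and 449 CPM in NPY-tet replicates 1 to 3, against 509, 311, 370, 411 and 487 CPM in the WT libraries (-0.47, SE 0.32). Col6a2 had 85.9, 252 and 399 CPM in the NPY-tet libraries, against 435, 284, 356, 353 and 421 CPM in the WT libraries (-0.59, SE 0.40). Col6a3 had 87.6, 203 and 281 CPM in the NPY-tet libraries, against 337, 248, 221, 239 and 310 CPM in the WT libraries (-0.51, SE 0.32). NPY-tet replicate 1 was the lowest library for each, 2.97-fold, 4.30-fold and 3.09-fold below the WT mean. Without it the log2 fold changes were -0.12 for Col6a1, -0.18 for Col6a2 and -0.16 for Col6a3. They were -0.86, -1.12 and -0.89 without NPY-tet replicate 3. Col6a5, which can replace Col6a3 in the trimer, had 0.515, 1.46 and 3.11 CPM in the NPY-tet libraries, against 8.40, 3.60, 4.12, 3.00 and 4.68 CPM in the WT libraries. Its log2 fold change was -1.49 (SE 0.53, 95% interval -2.67 to -0.30) and its adjusted p 0.783 by edgeR, so it was not called. NPY-tet replicate 3 lay just above WT replicate 4, so the groups overlapped. Without NPY-tet replicate 1 the log2 fold change was -1.05 for Col6a5 and -0.25 for Col6a6. Without NPY-tet replicate 3 it was -2.26 for Col6a5 and -1.40 for Col6a6. Col6a6 had 2.99, 10.3 and 19.2 CPM in the NPY-tet libraries, against 20.1, 19.7, 18.1, 11.4 and 18.7 CPM in the WT libraries (-0.70, SE 0.50). Col8a1 and Col8a2, of vessel walls and other sheets, had log2 fold changes of -0.02 and -0.09. Col6a4 and Col10a1 had at most 6 and 7 counts in any library and were not tested.

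FACIT chains showed no common direction, with 4 positive and 3 negative log2 fold changes among 7 tested of 9 (median 0.06). The median was 0.11 without NPY-tet replicate 1 and 0.03 without NPY-tet replicate 3. Col12a1, which bridges type I fibrils under load, had 28.2, 36.5 and 29.9 CPM in NPY-tet replicates 1 to 3, against 28.1, 24.3, 23.1, 26.5 and 56.5 CPM in the WT libraries (-0.0079, SE 0.28). Col14a1 had 28.3, 42.6 and 47.7 CPM in the NPY-tet libraries, against 55.9, 35.7, 34.1, 48.4 and 60.5 CPM in the WT libraries (-0.25, SE 0.23). Col16a1 had 113, 167 and 158 CPM in the NPY-tet libraries, against 170, 119, 110, 152 and 124 CPM in the WT libraries (0.11, SE 0.18). In NPY-tet replicate 1 all 3 lay within 2-fold of the WT mean. Col20a1 had 6.75, 5.20 and 6.03 CPM in the NPY-tet libraries, against 4.47, 4.13, 1.21, 3.24 and 2.47 CPM in the WT libraries. All NPY-tet values exceeded all WT values, with a log2 fold change of 0.95 (SE 0.35, unadjusted p = 0.0184, adjusted p = 0.783, edgeR). Col20a1 overlaps the lncRNA 9230112E08Rik on the same strand by 741 bases, so reads of the shared stretch are uncertain. The lncRNA had 2520 counts in the 8 libraries against 1239 for Col20a1. The libraries were non-directional, so overlaps with genes on the opposite strand carry the same doubt. Such overlaps include Col18a1 with Slc19a1 (8825 bases, 4216 counts for Slc19a1 against 42827). Col9a3 overlaps Tcfl5 by 234 bases (198 counts against 224). Col10a1 overlaps Nt5dc1 by 7105 bases (3361 counts against 25). Col22a1, known from tissue junctions, had a log2 fold change of 0.06. Col9a2 and Col9a3, of cartilage, were at or under 1.22 CPM in every library. Col9a1 had 0 counts in all 8 libraries, where 3 counts would be 0.0632 to 0.0956 CPM, and Col19a1 had at most 16 counts.

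Col17a1, the transmembrane chain that ties basal keratinocytes to the basement membrane, differed little between libraries. It had 1371.7, 1465.5 and 1488.9 CPM in NPY-tet replicates 1 to 3, against 1602.5, 1238.3, 1059.8, 1542.5 and 1172.5 CPM in the WT libraries. All NPY-tet values lay inside the WT range, and the log2 fold change was 0.12 (SE 0.19, 95% interval -0.29 to 0.54, or 0.818- to 1.45-fold). Of the 4 transmembrane chains 3 were tested, with a median of 0.03. The median was 0.16 without NPY-tet replicate 1 and -0.17 without NPY-tet replicate 3. Col13a1 and Col23a1 had log2 fold changes of 0.03 and -0.15, and Col25a1 had at most 9 counts. Col28a1, found around nerves, had 2.83, 1.41 and 2.10 CPM in the NPY-tet libraries, against 1.17, 1.14, 1.41, 1.199 and 1.61 CPM in the WT libraries. Its log2 fold change was 0.70 (SE 0.31, unadjusted p = 0.0440, adjusted p = 0.795, edgeR), and the groups overlapped. Col26a1 had a log2 fold change of -0.11 at or under 0.570 CPM. The median of these 2 other chains was 0.30. It was 0.22 without NPY-tet replicate 1 and 0.32 without NPY-tet replicate 3.

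**Figure D4:**
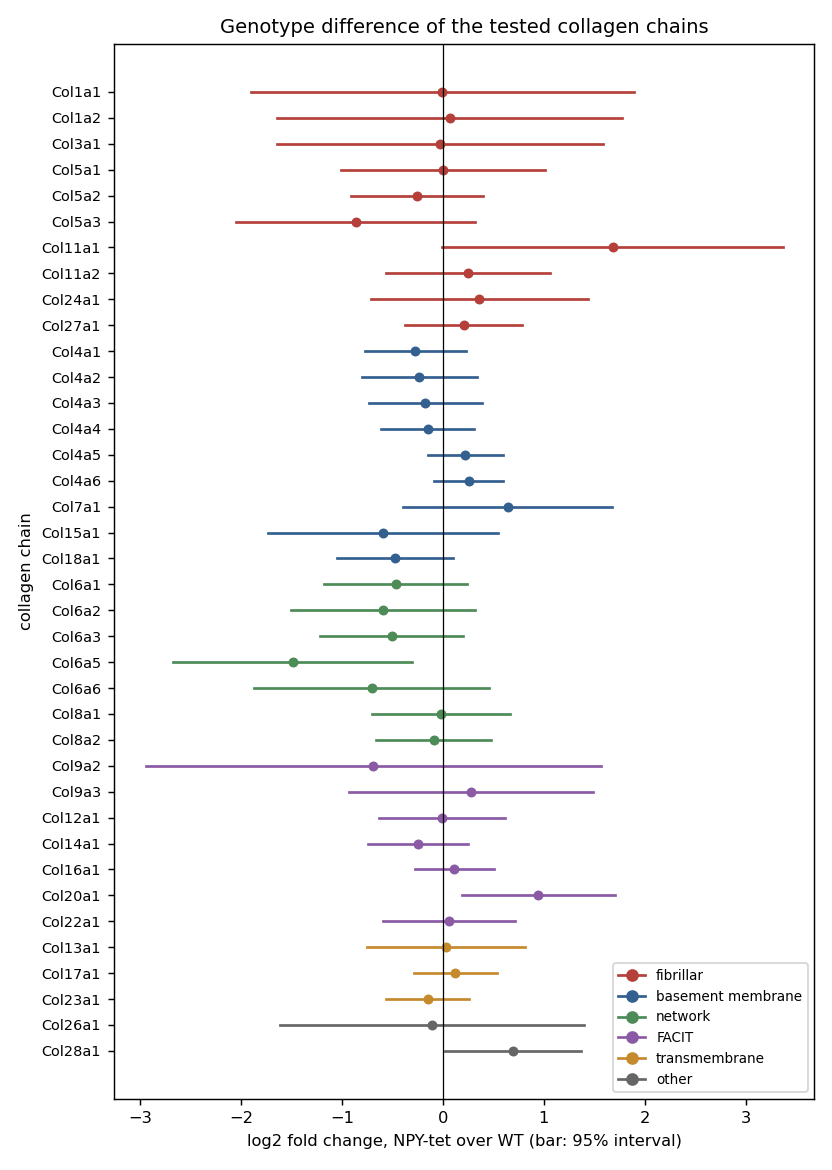
log2 fold change, NPY-tet over WT, with its 95% interval for the 38 tested chains, coloured by class. Network-forming chains all lie below 0 with NPY-tet replicate 1 included, and the intervals of Col1a1, Col1a2 and Col3a1 are wide, that of Col1a1 running from -1.90 to 1.90.

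Ratios between partner chains were compared as log2 count ratios, 8 in all, with exact two-sided permutation tests over 56 splits, whose smallest possible p is 0.0179. None passed after Benjamini-Hochberg adjustment, and the lowest exact permutation p was 0.143 (adjusted p = 0.571), for Col6a2 over Col6a1 (difference -0.24, NPY-tet minus WT, log2 scale). By FPKM, Col1a2 over Col1a1 was 0.635, 0.569 and 0.444 in NPY-tet replicates 1 to 3, against 0.450, 0.495, 0.498, 0.458 and 0.469 in the WT libraries. NPY-tet replicates 1 and 2 lay above the WT range and replicate 3 just below it. Col4a2 over Col4a1 was 0.746 ± 0.0834 in NPY-tet skin and 0.740 ± 0.0391 in WT skin, and Col6a3 over Col6a1 was 0.231 ± 0.00354 and 0.240 ± 0.0315 in the same order (SD, n = 3 and 5). The Col6a3 over Col6a1 ratio varied little between the NPY-tet mice, although each chain was lowest in replicate 1 and highest in replicate 3.

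Collagen values differed between the fits within each rRNA set. Within the rRNA-rich set, 11 of 40 chains tested were called lower in NPY-tet skin by edgeR, where 1.14% of all genes were called lower and 1.66% in either direction. These were Col3a1, Col5a1, Col5a2, Col5a3, Col6a1, Col6a2, Col6a3, Col6a5, Col6a6, Col15a1 and Col18a1. That fit sets 1 NPY-tet mouse against 4 WT mice, so it compares replicate 1 with those mice, on the assumption that it varies like them. Col1a1 and Col1a2, with log2 fold changes of -3.75 and -3.32 there, were not among the 11. Within the rRNA-poor set, with NPY-tet replicates 2 and 3 and 1 WT mouse whose spread is likewise assumed, 0 of 39 chains were called, where 1.17% of all genes were, and the median log2 fold change was 0.32. The median was -0.65 in the rRNA-rich set. Replicate 1 was the only NPY-tet mouse in the rRNA-rich set, so rRNA content and other traits of that mouse cannot be told apart. The part of the rRNA content in these differences was not tested.

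Genes that build, cut, bind and degrade collagen gave 0 calls by edgeR in each of 4 lists, where 0.00541% of all genes were called. Of 20 tested folding and hydroxylation genes, 4 had a positive and 16 a negative log2 fold change (median -0.10), and 15 were below every WT library in NPY-tet replicate 1, where 23.7% of all genes were. Serpinh1, the collagen chaperone HSP47, had 163, 340 and 547 CPM in NPY-tet replicates 1 to 3, against 432, 310, 355, 394 and 444 CPM in the WT libraries. Crtap, Colgalt1 and P3h2, which modify procollagen, had the smallest p of the list, with log2 fold changes of -0.17, -0.13 and -0.19. P4ha1, a prolyl hydroxylase subunit, averaged 52.7 ± 2.87 CPM in NPY-tet skin and 52.9 ± 5.97 CPM in WT skin. Of 13 cleavage and crosslinking genes, 4 were positive and 9 negative, and the crosslinking enzyme Lox had 117, 59.2 and 74.5 CPM in the NPY-tet libraries, against 49.8, 56.5, 56.6, 51.4 and 89.1 CPM in the WT libraries. Lox was highest in the mouse whose collagen counts were lowest. Its log2 fold change was 0.46 (SE 0.24), and those of its relatives Loxl3 and Loxl1 were -0.45 and -0.50. Of 9 receptors, 5 were positive and 4 negative. An unadjusted p under 0.05 was reached by 3 with lower values in NPY-tet skin, where 3.55% of all genes reached it. These were Lair1 (log2 fold change -1.09), Itga11 (-0.43) and Ddr2 (-0.29). Of 6 tested breakdown genes, 2 were positive and 4 negative, with Ctsk, the collagen-cleaving cathepsin K, at 0.44 (SE 0.19, unadjusted p = 0.0453, edgeR). Ctsb and Fap had log2 fold changes of -0.39 and -0.25.

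Markers of skin cell types moved between the same libraries. Over 10 fibroblast markers the summed level was 1735, 2578 and 2356 CPM in NPY-tet replicates 1 to 3 and 2286 to 2666 CPM in WT skin, and 6 of 10 were below every WT library in NPY-tet replicate 1, where 23.7% of all genes were. In that mouse the fibroblast genes Dcn and Pdgfra were at 0.910 and 1.00 times the WT mean, and Lum and Dpt at 0.353 and 0.480 times. Over 10 proliferation markers the sum was 29.3, 111 and 51.1 CPM in the NPY-tet libraries and 44.1 to 99.4 CPM in WT skin, and all 10 were below every WT library in NPY-tet replicate 1. Growing hair markers summed to 275, 852 and 108 CPM in NPY-tet replicates 1 to 3, against 71.7, 33.8, 33.5, 47.4 and 1063 CPM in the WT libraries. The 5 WT libraries had the same order in hair marker sum and in collagen share, with WT replicate 5 highest and WT replicate 3 lowest in both. WT replicates 2 and 3 nearly tied in the hair sum, and only WT replicate 5 was high. That order is given for 1 of 15 lists and was not tested. The 3 NPY-tet libraries did not share one order in the pair of measures: the hair sum was highest in replicate 2 and the collagen share in replicate 3. Over 10 white adipocyte markers the sum was 4506, 3530 and 8194 CPM in NPY-tet replicates 1 to 3 and 5626 to 9407 CPM in WT skin. Macrophage markers summed to 799, 511 and 854 CPM in the NPY-tet libraries and 746 to 1107 CPM in WT skin. For both lists NPY-tet replicate 2 was the lowest library. In NPY-tet replicate 1, 9 of 10 adipocyte and 5 of 10 macrophage markers were below every WT library. The counts in that mouse were 6 of 10 for skeletal muscle, 5 of 10 for vascular smooth muscle, 2 of 10 for basal keratinocytes, 2 of 10 for Schwann cells and 1 of 10 for blood endothelium. They were 0 of 14 for growing hair and 0 of 4 for cartilage. Skeletal muscle markers summed to 31027 to 48633 CPM in NPY-tet skin and 32303 to 78799 CPM in WT skin, and basal keratinocyte markers to 8204 to 11488 CPM and 8120 to 12771 CPM in the same order. Of 9 cartilage markers, 2 were at 0 in all libraries. The part of cell type make-up in the collagen values was not tested.

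**Figure D5:**
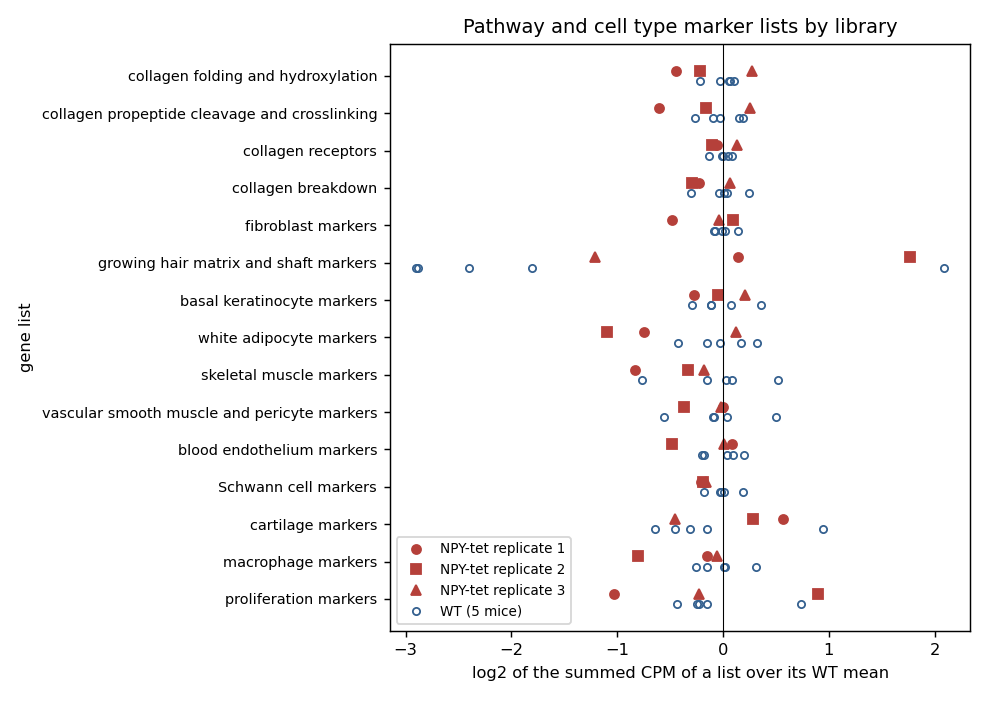
log2 of the summed CPM of each of 15 gene lists over the WT mean, 1 point per mouse, NPY-tet points drawn above WT points in each row. Proliferation markers are lowest in NPY-tet replicate 1, and growing hair markers spread most widely, from 33.5 to 1063 CPM among WT mice.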

How the data were processed

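Poly-A selected, non-directional libraries were made from whole skin RNA, per the labels' protocols. The deposited count table holds whole-number counts per gene and the deposited FPKM table the authors' length-scaled values. The submitters' processing notes name build mm39, the counter featureCounts (1.5.0-p3), the aligner HISAT2 (2.0.5), CASAVA, and DESeq2 in version 1.20.0. What each did to these files and the annotation release are not given in the sources used here. Library names in the descriptions carry a mouse number higher by 1 than the titles for some samples, while the genotype matches in all labels.

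Counts were tested over all genes kept by filterByExpr with edgeR 4.0.16 (quasi-likelihood, TMM, genotype as the only term, R 4.3.3) and Benjamini-Hochberg adjustment at 0.05. Adjusted p-values run over all genes. CPM use TMM library sizes. Alternatives were other size factors, filters, DESeq2 1.42.0, limma 3.58.1 on counts and on log2(FPKM + 1 or 0.1), a replicate block, the rRNA set (boundary 1% of counts), and leaving out each mouse. Scripts were tested on simulated data. The chains, lists and named genes, namely the major chains of each class, those with the smallest p and up to 3 of the smallest p per pathway list, were chosen with earlier results of these data known. Serpinh1, P4ha1, Lum, Dpt, Dcn and Pdgfra were named after their values were seen. P-values measure the spread between mice. In the fits within an rRNA set, 1 group had a single mouse, so its spread was assumed and not measured. Sequences are from RefSeq (GRCm38.p6), a different build from the counts.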

Additional observations from a re-analysis of the deposited data

Results flagged for a closer look

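Within the 5 WT mice, 2 of 38 chains had a mouse far from the other 4 by Dixon's test, a rule that chance meets in about 1 in 20 groups. Col6a6 was lowest in WT replicate 4, at 11.4 CPM, where the others had 18.1 to 20.1 CPM. Col12a1 was highest in WT replicate 5, at 56.5 CPM, where the others had 23.1 to 28.1 CPM. Among 8 chain ratios, the log2 count ratio of Col4a2 to Col4a1 was lowest in WT replicate 2, at -0.74. The test was not run on the NPY-tet group of 3.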

How the results depend on the processing

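The number of genes called (1 in the main analysis, Npy) was 21 with no filter on low counts, 61 by DESeq2, 3 by limma-voom, 2 on log2(FPKM + 1), 2 on log2(FPKM + 0.1), 11 with the rRNA set as a covariate, 332 in rRNA-rich and 227 in rRNA-poor libraries. Leaving out 1 mouse gave 1 to 8 genes, the 8 without NPY-tet replicate 3, and 0 chains each time. Collagen chains called (0) became 11 in rRNA-rich libraries and 3 at an unadjusted p. With the replicate block 2 genes and 0 chains were called. Same-numbered NPY-tet and WT mice had correlations of -0.04, -0.11 and 0.30, and differently numbered mice -0.45 to 0.35. With so few same-numbered mice, these values cannot decide whether the numbers pair mice.

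The median log2 fold change of all chains was -0.65 in rRNA-rich libraries. The fibrillar median was -0.63 with the covariate, -1.71 in rRNA-rich and 0.88 in rRNA-poor libraries. Basement membrane gave -0.49 and 0.29 in the rRNA-rich and rRNA-poor libraries. In rRNA-rich libraries network chains gave -1.65 and transmembrane chains -0.39. The 2 other chains gave 0.81 with the covariate and 1.75 in rRNA-poor libraries.

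Among chains with values given per library, direction reversed in rRNA-poor libraries for Col1a1 (1.03), Col3a1 (0.88), Col5a2 (0.30), Col6a3 (0.0094), Col6a6 (0.36), Col12a1 (0.31) and Col17a1 (-0.075). Of the other chains, Col4a3 (0.43), Col4a4 (0.37), Col8a1 (0.66), Col23a1 (0.028) and Col26a1 (2.96) were positive there and negative with all mice. Col1a2 reversed with the covariate (-1.20) and in rRNA-rich libraries (-3.32), as did Col5a1 (-0.68 and -1.71). Col12a1 reversed under the replicate block (0.32). Leaving out 1 mouse gave -0.82 to 0.55 for Col1a1, -0.53 to 0.61 for Col1a2, -0.55 to 0.51 for Col3a1 and -0.74 to 0.016 for Col4a2, each lowest without NPY-tet replicate 3 and highest without replicate 1. The same omissions gave -1.27 to -0.14 for Col15a1 and -1.61 to -0.41 for Col5a3. Col11a1 ran between 0.83, without NPY-tet replicate 2, and 2.19, without WT replicate 5. Leaving out 1 mouse also gave -0.13 to 0.31 for Col12a1, positive without WT replicate 5, -0.46 to 0.44 for Col5a1, negative without NPY-tet replicate 3, and -0.58 to 0.089 for Col5a2, positive without NPY-tet replicate 1. The cause was not tested.

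The Col1a1 interval of 0.267- to 3.72-fold comes from counts of 16427 to 347580 per library. Its SE was 0.82 with all mice and 0.43 without NPY-tet replicate 1. Chains under 1 CPM rest on few counts.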
